A study of Arabidopsis thaliana with 6 samples.

Results

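The regions described here are whole introns of Arabidopsis thaliana that hold other annotated bins inside them, such as a stretch that is exonic in another transcript of the same gene. They were taken from the deposited intron table by 2 conditions: the table marks the row as a whole intron that overlaps other bins, and its gene has a mean count of at least 20 over the libraries. Of 5547 such rows, 5250 met the second condition, among 128782 rows of the intron table in all. The 5250 members lay in 3615 genes, 1079 genes held more than 1, and 1567 members overlapped another member, so they are not independent of each other.

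RNA was compared between 3 libraries of prmt5 mutant plants and 3 libraries of wild type plants, both of the Col background. Seeds of both genotypes were stratified for 4 days and grown under continuous white light at 22 °C, and whole plants were harvested at 15 days as a pool of tissues. Polyadenylated RNA was sequenced. The labels name no allele for the mutant, no batch, and not whether the libraries came from separate plants, so p-values measure the spread between these libraries, which may be technical.

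PRMT5 is an arginine methyltransferase that places symmetric dimethyl marks on proteins, among them the Sm proteins at the core of the spliceosome's small nuclear ribonucleoproteins. An intron is removed after its donor, the 5′ splice site, is paired with U1 RNA and its acceptor, the 3′ splice site, is bound by U2AF. Where a second donor, a second acceptor or a whole exon lies inside an intron, the outer and the inner sites compete for splicing. In plants prmt5 mutants are known for altered splicing at weak donors and for changed clock and flowering time.

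The members fall into classes by what they hold. An inner alternative acceptor was held by 2182 members, an inner alternative donor by 1310, a skipped exon by 625, a retained intron by 119 and several kinds by 745, while 269 held bins with no event named. The coding span of their gene held 3850 members, 1016 lay on the 5′ UTR side of it, 154 on the 3′ UTR side, 180 across an end of it and 50 in genes with no annotated CDS. Their length had a median of 199 bases with a range of 15 to 5610. Of the 5250, 5048 (96.2%) begin with GT and end with AG, 177 are GC-AG, 8 are AT-AC and 17 have other ends. Reads of a nested exonic bin also count for the whole intron, and such bins held a median of 76.6% of a member's nested reads (5213 members with reads), so a member's count is not a measure of unspliced RNA alone.

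The sequences of 5 members are shown because the results below turn on them, each printed on the gene's strand from RefSeq's TAIR10.1 assembly, with bases that are exonic in some annotated transcript in capitals. PRR9 (AT2G46790:Io007, chr2:19233323-19233419, plus strand) and P5CR (AT5G14800:Io001, chr5:4786379-4786484, minus strand) begin with a few such bases, because an alternative donor lies just inside. In UEV1D-4 (AT3G52560:Io005, chr3:19495029-19495265, minus strand) the exonic stretch runs to the acceptor. AT5G63460:Io006 (chr5:25414327-25414573, minus strand) holds a skipped exon. PIN7 (AT1G23080:Io006, chr1:8182129-8182217, minus strand) again has an alternative donor just inside.
PRR9: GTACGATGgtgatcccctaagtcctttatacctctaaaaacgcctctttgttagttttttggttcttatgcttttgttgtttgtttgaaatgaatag
P5CR: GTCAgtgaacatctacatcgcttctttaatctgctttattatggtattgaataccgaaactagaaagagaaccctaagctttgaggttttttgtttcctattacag
UEV1D-4: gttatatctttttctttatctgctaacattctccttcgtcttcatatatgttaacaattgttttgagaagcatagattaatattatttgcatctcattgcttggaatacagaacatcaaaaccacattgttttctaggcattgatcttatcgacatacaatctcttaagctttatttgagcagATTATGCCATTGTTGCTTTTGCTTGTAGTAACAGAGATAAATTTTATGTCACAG
AT5G63460: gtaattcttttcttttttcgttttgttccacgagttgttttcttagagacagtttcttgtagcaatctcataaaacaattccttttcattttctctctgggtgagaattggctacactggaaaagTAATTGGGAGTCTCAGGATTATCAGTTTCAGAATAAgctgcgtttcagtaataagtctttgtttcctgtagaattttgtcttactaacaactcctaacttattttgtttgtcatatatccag
PIN7: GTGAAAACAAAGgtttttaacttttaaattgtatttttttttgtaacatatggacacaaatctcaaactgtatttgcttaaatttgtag

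Donors of 7 members are shown beside the donor of their strongest competing junction, because the junction of the whole intron lost or gained reads against it. Each is 20 bases on the gene's strand, 10 exonic and 10 intronic for that junction, with the 9 bases that enter the donor score in capitals. The score sums the log2 ratio of each base's frequency at that position, among 102413 constitutive introns that have a junction and begin with GT, to an even use of bases, so that a higher score is closer to the common donor. The whole-intron donor scored lower than its competitor in the first 2 (2.51 against 8.12 in AT2G04845, 4.56 against 4.92 in AT2G04690). In AT1G52220 the scores were 3.70 and 4.97, and in ATMAP4K ALPHA1 they were 4.07 and 3.65. It scored higher in the last 3 (7.53 against 3.47 in XBAT35, 10.99 against 8.93 in AT3G10770, 10.84 against 7.81 in AT5G05550). Further pairs are not printed, and they were mixed. In AT5G53850, whose whole-intron junction rose, the whole-intron donor scored lower (8.90 against 9.65). In CBL, whose junction also rose, it scored higher (3.85 against 3.08). In UEV1D-4, whose junction fell, it scored lower (1.54 against 2.80). The junction of AT5G40500 fell, and its competitor has no score.
AT2G04845 whole intron: ccgcaaaCTAGTACAAcaac
AT2G04845 competitor: tgtctcaAATGTATGTgctc
AT2G04690 whole intron: atgccaaGTCGTAAGTacat
AT2G04690 competitor: aaaaacaTCGGTAATCtctg
AT1G52220 whole intron: tcagaatGTTGTGAGTccct
AT1G52220 competitor: tctcatcACGGTATAGtaat
ATMAP4K ALPHA1 whole intron: ctggaacTAGGTTGGAtaaa
ATMAP4K ALPHA1 competitor: tggataaATGGTTGGAtaaa
XBAT35 whole intron: aactccaCAAGTAATTttcc
XBAT35 competitor: gtagttaGGCGTAAGTctac
AT3G10770 whole intron: gctatgaCAGGTATGTcgtg
AT3G10770 competitor: cggcctaCAGGTAAACcttt
AT5G05550 whole intron: agtgcttCAGGTAAGAagaa
AT5G05550 competitor: agacttcCAGGTTTGAaatt

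Gene counts summed to between 33099525 and 40150358 per library in the mutant and to between 29145068 and 59480457 in the wild type, and the members held between 1337531 and 1586812 counts in mutant libraries and between 1140985 and 2270215 in wild type libraries. PRMT5 (AT4G31120, reference symbol SKB1) holds no member. Its gene had 1915, 2438 and 1840 counts in the mutant and 1385, 1670 and 865 in the wild type. Its level was higher in all 3 mutant libraries (log2 change 0.81, edgeR adjusted p = 0.00011), so transcript of the gene was present there, and the labels give no mutated position at which it could be checked. Markers of green tissue were abundant in both genotypes and lower in the mutant, with log2 changes of -0.43 for RBCS1A, -1.28 for CAB1 and -1.55 for CAB2. The root markers SHV2, AT5G17820 and TIP2;3 were detected in all libraries, with log2 changes of 0.08, 0.13 and -0.00. In bulk RNA, fewer cells of a type and less RNA per cell cannot be told apart.

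Coverage along genes differed between libraries and touches every value set against the gene. Genes were cut into 3 equal parts, and the exonic read density of the part nearest the 3′ end was set against that of the part nearest the 5′ end. The median over genes of this ratio, on the log2 scale, was 0.76, 0.84 and 1.32 in mutant libraries and 1.68, 1.26 and 1.33 in wild type libraries. Mutant replicates 1 and 2 thus had the most even coverage, and mutant replicate 3 lay among the wild type libraries. The comparison of intron reads with the junction that has the same ends takes numerator and reference from the same place in the gene.

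Relative to the gene, many more members were higher than lower in the prmt5 mutant. Of 5250 members, 4209 had the 10 reads in 3 libraries needed for the test and 1041 had fewer, 37 of them with 0 reads in every library. Among the 4209, 691 rose and 70 fell relative to their gene (edgeR quasi-likelihood test, adjusted p under 0.05), which is 18.1% in all. Over the whole intron table, of 38617 rows tested, 26.5% were called, 25.3% higher and 1.21% lower. The median log2 change was 0.25 over members and 0.43 over all rows. Constitutive intron bins were called in 27.7% with a median of 0.48, and annotated retained introns in 24.3% with a median of 0.26. The 691 members that rose lay in 573 genes and the 70 that fell in 66, with 3 genes in both sets. The values of the groups did not overlap in 635 of the 691 and in 56 of the 70. A call makes such separation likely, and it was not counted over all called rows, so it is no finding about the members.

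How far the members moved depended on the scale. With the library's slope of coverage as a covariate, 249 rose and 19 fell and the members' median was 0.08; of all rows 15.2% were then called, 14.8% higher and 0.368% lower. With the intron table scaled to its own centre, which shifts the median of all rows to -0.01, 433 members rose and 988 fell (this scaling was added after the data were seen). Without mutant replicate 1, 491 members were called, and without mutant replicate 2, 470.

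Among members with a mean of at least 50 reads and groups that do not overlap, which the naming rule requires, the largest rise was in WLIM2b (AT3G55770:Io001, chr3:20703416-20703509), which encodes a LIM domain protein that bundles actin filaments. Its whole intron, on the 5′ UTR side, had 161, 147 and 117 reads in mutant libraries and 2, 25 and 5 in wild type libraries. Per 100 gene reads that is 4.65, 3.53 and 3.35 in the mutant and 0.0566, 0.54 and 0.207 in the wild type (log2 change 3.69 ± 0.36 SE, adjusted p = 6.85e-09). The change ranged from 3.20 without wild type replicate 1 to 4.97 without wild type replicate 2, and was called each time. The junction with the same ends held at least 98.3% of competing junction reads in every library, and the log2 change of the intron relative to this junction was again 3.69. Below the minimum of 50 reads, ATMAP4K ALPHA1 (AT1G53165:Io013) rose by 3.54 on the log2 scale.

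AT4G04340:Io001 (chr4:2122896-2123193), in a gene annotated as an early-responsive to dehydration family member, was next under the same rule. It had 3.16, 3.51 and 2.61 reads per 100 gene reads in the mutant and 0.363, 0.324 and 0.0633 in the wild type (log2 3.51 ± 0.29). Relative to the junction with the same ends the log2 change was 3.81 (adjusted p = 0.000117).

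CA2 (AT5G14740:Io002, chr5:4759214-4760524) encodes a carbonic anhydrase, which interconverts carbon dioxide and bicarbonate. Its 1311 bases held 2130, 1975 and 1296 reads in the mutant and 206, 547 and 232 in the wild type, which is 2.99 ± 0.562 and 0.496 ± 0.0788 reads per 100 gene reads (SD, n = 3 each). The rise was 2.58 on the log2 scale (adjusted p = 8.64e-13), and the intron-table bin of 1306 bases inside it rose by 2.62. Relative to the same-end junction the rise was 2.37 (adjusted p = 1.13e-07). The gene's own level differed by a log2 change of 0.09 (adjusted p = 0.671), so the reads of this intron were higher in the mutant with no detected difference in gene level.

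P5CR (AT5G14800:Io001), the gene of the last enzyme of proline synthesis, had 464, 616 and 576 intron reads in the mutant and 101, 103 and 58 in the wild type. Per 100 gene reads it averaged 9.84 ± 1.10 in the mutant and 1.94 ± 0.237 in the wild type (SD, n = 3 each; log2 2.34, adjusted p = 3.08e-11). Its donor, printed above with the 4 exonic bases after it, has one of the lowest scores among the named members, 1.02. Its spliced reads fell at the same time, with 423, 489 and 411 junction reads in the mutant and 589, 850 and 497 in the wild type (log2 change relative to the gene -0.87, adjusted p = 1.87e-05), and the intron rose by 3.20 relative to this junction (adjusted p = 4.43e-08).

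UEV1D-4 (AT3G52560:Io005) encodes a ubiquitin-conjugating enzyme variant. It had 10.3, 10.9 and 9.29 reads per 100 gene reads in the mutant and 1.78, 2.03 and 2.20 in the wild type (log2 2.35, adjusted p = 7.61e-10). The junction of the whole intron, whose donor scores 1.54, fell to 37, 30 and 42 reads in the mutant, against 51, 137 and 74 in the wild type (log2 relative to the gene -1.26, adjusted p = 0.00883). Relative to this junction the intron rose by 3.57 (adjusted p = 1.67e-07). Both the intron-table bin inside it (log2 2.57) and the nested exonic bin at the acceptor (log2 2.19) were higher.

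The other 3 of the 8 largest rises were AT4G21450:Io008 (log2 2.69), AT1G52100:Io004 in a lectin gene (2.33) and AT1G51200:Io004 in a zinc finger gene (2.31). In AT1G52100 the wild type libraries had only 3, 4 and 4 intron reads, against 136, 92 and 69 in mutant libraries, and the gene itself was higher in the mutant (log2 2.58).

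**Figure D1:**
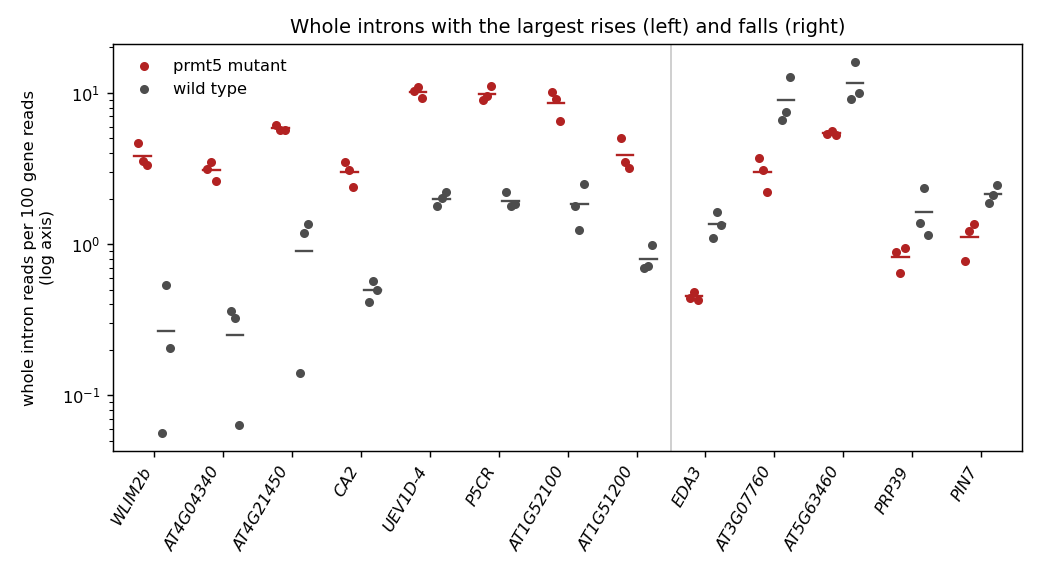
Whole intron reads per 100 reads of the gene (log axis) for the 8 members with the largest rises, left of the grey line, and the 5 with the largest falls, right of it; points are libraries, prmt5 mutant left of wild type for each gene, and bars are means of 3 libraries. All 13 were chosen among members whose groups do not overlap, so their separation is no finding; WLIM2b, for example, lies at 3.35 to 4.65 in the mutant and 0.0566 to 0.54 in the wild type.

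Falls were fewer and smaller. EDA3 (AT2G34860:Io005, chr2:14709809-14709930), a DnaJ-type zinc finger gene, had 0.439, 0.485 and 0.429 reads per 100 gene reads in the mutant and 1.10, 1.63 and 1.34 in the wild type (log2 -1.59, adjusted p = 3.51e-05). The lower level lay in its nested exonic bin of 4 bases (log2 -2.51), while the intron-table bin beside it did not pass the test (0.19, adjusted p = 0.74). The junction from the inner donor had 1, 1 and 2 reads in the mutant and 46, 113 and 48 in the wild type (log2 relative to the gene -5.10, adjusted p = 2.09e-08). Relative to the whole-intron junction the intron fell by 1.51 (adjusted p = 0.00067). AT3G07760:Io001 (chr3:2476573-2476714), in a sterile alpha motif gene, had 3.69, 3.08 and 2.23 reads per 100 gene reads in the mutant and 6.67, 7.5 and 12.8 in the wild type (log2 -1.56, adjusted p = 0.00026), and it fell by 2.47 relative to the whole-intron junction. Its nested exonic bin of 4 bases had 21, 16 and 16 reads in the mutant and 58, 87 and 78 in the wild type (log2 -1.66). Neither this bin (adjusted p = 0.163) nor the intron-table bin of 138 bases (log2 -0.35, adjusted p = 0.688) passed the test. The junction from the inner donor fell relative to the gene (log2 -1.89, adjusted p = 0.00128).

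AT5G63460:Io006, whose skipped exon is printed above, had 5.35, 5.64 and 5.25 reads per 100 gene reads in the mutant and 9.08, 15.9 and 10 in the wild type (log2 -1.11, adjusted p = 0.00152). Relative to the junction it fell by 2.32. The junction that skips this exon had 74, 91 and 74 reads in the mutant and 68, 67 and 56 in the wild type, and rose by 1.18 relative to the gene (adjusted p = 0.00259). It held 97.4%, 98.9% and 97.4% of competing junction reads in the mutant and 64.2%, 56.3% and 68.3% in the wild type. These shares did not overlap, but their difference passed neither of 2 edgeR tests described below. The adjusted p was 0.115 in the test of junction shares and 0.265 in that within junction clusters. It was called where competitors of at least 10 reads in 3 libraries were required (log2 0.58, edgeR adjusted p = 0.00388). The nested exon had 19, 23 and 12 reads in the mutant and 71, 113 and 43 in the wild type, and that difference relative to the gene did not pass the test (log2 -1.15, adjusted p = 0.222).

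PRP39 (AT1G04080:Io004, chr1:1052776-1053326) encodes a protein associated with the U1 ribonucleoprotein, which binds donors. It had 0.891, 0.644 and 0.943 reads per 100 gene reads in the mutant and 1.39, 2.34 and 1.15 in the wild type (log2 -1.02, adjusted p = 0.00443). Wild type replicate 2 was highest, and without it the log2 change was -0.64 and no longer called. Relative to the junction the log2 change was -1.74 (adjusted p = 0.000787). PIN7 (AT1G23080:Io006), an auxin efflux carrier gene, had 0.771, 1.23 and 1.37 in the mutant and 1.88, 2.1 and 2.48 in the wild type (log2 -0.92, adjusted p = 0.00528). With the coverage covariate its log2 change was -0.75 and not called, while relative to the junction it was -1.35 (adjusted p = 0.000769). The parts of this intron differed in direction: the intron-table bin of 77 bases rose by 1.24 (adjusted p = 0.0459), and the nested exonic bin had a log2 change of -1.31 that did not pass the test (adjusted p = 0.0994).

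Among the classes, the share that rose was highest for members that hold bins with no event named and for those with an alternative donor. Those with no event rose in 51 of 196 tested (26%, 6 lower, median log2 0.49). Members with an inner alternative donor rose in 221 of 957 (23.1%, 20 lower, median 0.30), and those with a retained intron in 24 of 108 (22.2%, 7 lower, 0.29). Members with several kinds rose in 116 of 662 (17.5%, 11 lower, 0.23) and those with a skipped exon in 82 of 470 (17.4%, 7 lower, 0.32). Members with an inner alternative acceptor, the largest class, rose least often, in 197 of 1816 (10.8%, 19 lower, 0.19). The smallest adjusted p among called members of the exon skipping class was in RAP2.7, and in the class with no event in AT4G18070.

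RAP2.7 (AT2G28550:Io003) encodes an AP2-type factor that represses flowering. It had 8.90, 8.29 and 9.63 reads per 100 gene reads in the mutant and 2.66, 2.37 and 2.65 in the wild type (log2 1.81, adjusted p = 9.74e-10). The junction that skips the nested exon had 61.5%, 63.8% and 57.1% of competing junction reads in the mutant and 86.5%, 89% and 87.7% in the wild type. This difference of shares did not pass the test (adjusted p = 0.136), nor the test within junction clusters described below (0.197). It was called where competitors of at least 10 reads in 3 libraries were required (log2 -0.53, edgeR adjusted p = 2.97e-08). Of the junctions that include the exon, 12227014-12227119 rose relative to the gene (log2 2.29, adjusted p = 3.32e-06). The other, 12226862-12226968, did not pass (-0.21, adjusted p = 0.865). The intron-table bins on either side of the nested exon rose by 2.42 and 1.29, the nested exon by 2.05 and the whole intron relative to the skipping junction by 2.60 on the log2 scale. AT4G18070:Io001 (chr4:10030945-10031568) had 16.1, 13.6 and 14.1 reads per 100 gene reads in the mutant and 3.96, 4.05 and 2.89 in the wild type (log2 1.98, adjusted p = 8.25e-09).

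The make-up of the count also differed among members that rose. Where nested exonic bins held less than 50% of the nested reads, 326 of 1031 members rose (31.6%, median log2 0.52). Where they held 50% or more, 365 of 3178 rose (11.5%, median 0.20). The nested reads were averaged over all libraries, mutant ones included. Reads gained in the mutant thus enter the split, and this contrast is in part built in. Besides exonic bins, members hold smaller bins of the intron table, some of which overlap an exonic bin. In members with such a bin tested, the one with most reads rose in 451 of the 550 that rose as a whole, and in 378 of the 1878 that were not called as a whole. For ATU2AF35A (AT1G27650:Io002, chr1:9614582-9615195), a subunit of the factor that binds the acceptor, the whole intron changed by 0.58 and the intron-table bin between its exonic bins by 3.31 on the log2 scale. Exonic bins hold 85% of its nested reads, and no junction with the ends of this whole intron was counted. Of all 2487 intron-table bins tested inside members, 788 rose (31.7%) and 29 fell (1.17%), against 25.3% higher and 1.21% lower over all rows. Of these, 360 overlap a nested exonic bin, and 63 of them rose and 13 fell.

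Nested exonic bins themselves were rarely called. Of 4091 tested, 46 rose and 5 fell relative to the gene, against 0.095% of all 122139 exon bins tested (0.0712% higher and 0.0237% lower), and their median log2 change was 0.18 against 0.10 over all exon bins. Without mutant replicate 3 the count was larger, for a reason that was not tested: 285 rose and 86 fell and 8.16% of all exon bins were called. The count was 15 to 28 when another library was left out.

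**Figure D2:**
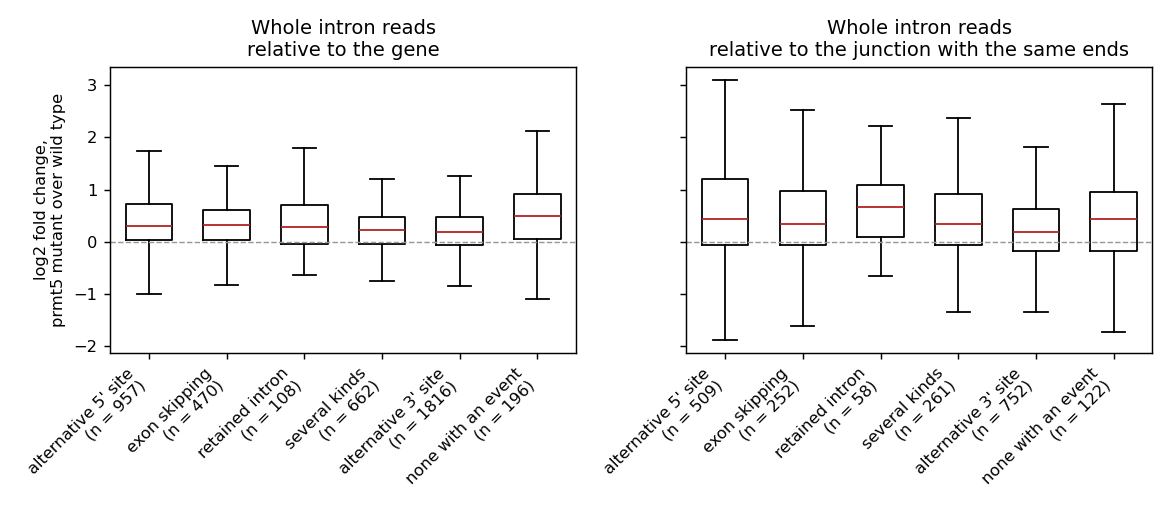
Log2 fold change of whole intron reads, prmt5 mutant over wild type, relative to the gene (left) and relative to the junction with the same ends (right), by what the intron holds; boxes span the quartiles with the median in red, whiskers reach 1.5 box lengths, outliers are not drawn and n is the number of members tested. All medians lie above 0, from 0.19 for alternative acceptors to 0.49 for no named event on the left, and from 0.19 to 0.66 for retained introns on the right.

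Position in the gene moved with the change relative to the gene. In the 5′ part of the gene, of the 3 parts above, 472 of 1857 members rose and 12 fell. In the middle part 159 of 1211 rose and 13 fell, and in the 3′ part 60 of 1141 rose and 45 fell. On the 3′ UTR side 6 rose and 22 fell of 151, with a median of -0.24. Spearman's rho between position and log2 change was -0.50 over 4209 members, which share libraries and often a gene. The slope of coverage differs between libraries in the same direction, and its part in this pattern was not tested beyond the covariate above.

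Relative to the junction with the same ends, the rise did not follow position. A junction with the same start and end was counted for 4182 members, and 1954 had enough intron reads and a junction mean of at least 10. Of these, 417 rose and 73 fell (25.1%), against 26.8% of all 32128 rows tested (25.7% higher and 1.11% lower). The median log2 change was 0.31 over members and 0.48 over all rows. The share that rose was 21.3% in the 5′ part, 23.1% in the middle part and 19.6% in the 3′ part, and rho with position was -0.05. On the 3′ UTR side 29 of 97 rose and 5 fell. With the coverage covariate 274 rose and 50 fell, and the median was 0.33.

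The comparison with the junction did move with the donor. Members that begin with GT were split into 3 groups of like size at donor scores of 5.50 and 7.72. Members with a weak donor rose relative to their junction in 179 of 477 (37.5%, 15 lower, median log2 0.70). Those with a middle score rose in 141 of 682 (20.7%, 21 lower, 0.34), and those with a strong donor in 83 of 724 (11.5%, 35 lower, 0.11). The median donor score was 5.78 for 403 members that rose, 7.56 for 71 that fell and 7.49 for 1409 not called. Where the last exonic base before the donor was G, 288 of 1561 rose (18.4%), and where it was A, C or T, 55 of 162 (34%), 26 of 63 (41.3%) and 48 of 168 (28.6%).

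**Figure D3:**
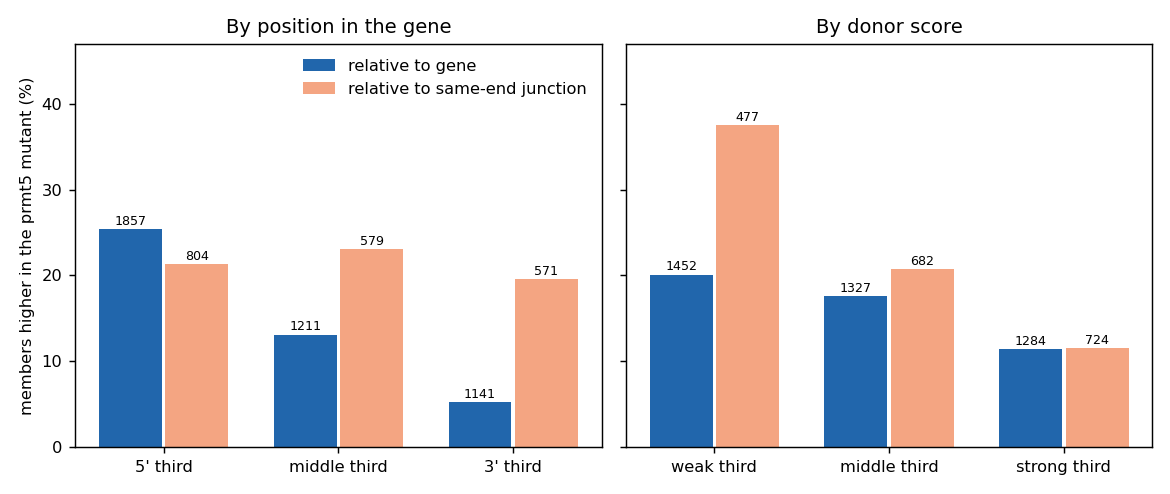
Percent of tested members that rose in the prmt5 mutant by part of the gene from 5′ to 3′ (left) and by group of donor score from weak to strong (right), relative to the gene (blue) and relative to the junction with the same ends (orange); numbers above bars are members tested. The blue bars fall from 25.4% to 5.26% along the gene while the orange stay between 19.6% and 23.1%, and the orange fall from 37.5% for weak to 11.5% for strong donors.

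Among classes, members with a retained intron rose relative to the junction in 20 of 58 (median log2 0.66) and those with an alternative donor in 155 of 509, with 29 lower (0.44). Members with an alternative acceptor rose in 92 of 752, with 15 lower (0.19). Of 454 members that rose relative to the gene and were tested in both comparisons, 305 also rose relative to the junction and 0 fell. Of 46 that fell relative to the gene, 24 fell relative to the junction and 4 rose. Both comparisons share the intron counts, so their agreement is in part built in.

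**Figure D4:**
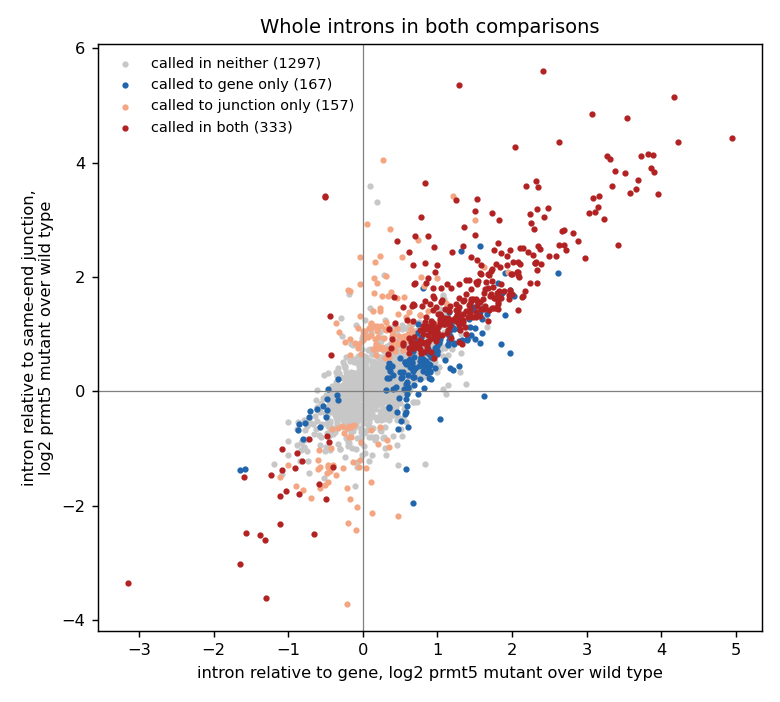
Log2 fold change of whole intron reads, prmt5 mutant over wild type, relative to the gene (horizontal) and to the junction with the same ends (vertical) for 1954 members, each point 1 member coloured by the comparisons in which it was called. Of these, 333 were called in both, 167 relative to the gene only, 157 relative to the junction only and 1297 in neither, and the upper right holds most of those called in both.

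The junctions themselves changed less often than the intron reads. Relative to the gene, 39 of 2675 same-end junctions tested rose and 68 fell (4%), against 1.67% of all 93673 junctions (0.711% higher and 0.957% lower). This count changed when single libraries were left out: it was 51 without mutant replicate 1, 61 without mutant replicate 2, 303 without mutant replicate 3, 61 without wild type replicate 1 and 61 without wild type replicate 3. The cause was not tested. With a weak donor 14 rose and 42 fell of 623 tested, and with a strong donor 17 rose and 10 fell of 1009. Of 460 members whose intron rose and whose junction was tested, the junction fell in 32 and rose in 6.

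Whether the outer splice sites were used in place of others was asked with the share of the same-end junction among all junctions that share its start or its end. Of 3177 members tested, 9 rose and 5 fell, against 0.128% of all 79009 junctions (0.057% higher and 0.0709% lower). The reference here holds the junction itself, so a junction near 100% has little room to differ. With competitors of at least 10 reads in 3 libraries required, 48 rose and 52 fell of 2091, against 1.2% of all 47858 junctions (0.577% higher and 0.623% lower).

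By the naming rule, 3 members stand out in this test. In ABCI14 (AT1G19800:Io001, chr1:6846471-6846730), which encodes a subunit of the lipid importer of the chloroplast envelope, the share was 65.5%, 64.3% and 71.4% in the mutant and 34.7%, 37.4% and 33.7% in the wild type (log2 0.89, adjusted p = 0.00127). In PIN7 the donor at the start of the printed intron was used in 92.7%, 92.2% and 91.6% in the mutant and 74.1%, 71.3% and 69.8% in the wild type (log2 0.36, adjusted p = 0.0092). In AT1G52220 (AT1G52220:Io006, chr1:19454095-19454377), a CURVATURE THYLAKOID gene, the skipping junction fell to 0.916%, 1.02% and 0.892% in the mutant, against 2.45%, 2.34% and 2.62% in the wild type (log2 -1.37, adjusted p = 0.017). The rule required shares that do not overlap, and each call was lost under some of the other settings tried.

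A test of each junction within its cluster of linked junctions, added after the data were seen, gave 41 called members, 18 with a higher and 23 with a lower use of their own junction, of 1063 tested (3.86%). Of all 5020 junctions in 2344 clusters, 5.08% were called, 2.73% higher and 2.35% lower, so members were not called more often than other junctions. Shares did not overlap between the groups in any of the 41, which a call makes likely and which was not counted over other junctions. The members below were chosen after their values were seen, from called members with a mean of 30 or more junction reads. The share test above called 2 of them, AT2G04845 (adjusted p = 0.00402) and AT5G05550 (0.0407). It did not call AT2G04690 (0.222), ATMAP4K ALPHA1 (0.429), FAC1 (0.209), AT4G21660 (0.215), XBAT35 (0.136), AFC2 (0.406) or CBL (0.331).

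In AT2G04690:Io006 (chr2:1646032-1646154), in a gene of the pyridoxamine phosphate oxidase family, the whole-intron junction had 55, 63 and 58 reads in the mutant and 246, 354 and 128 in the wild type. The competing donor lies 35 bases further in, and its junction had 214, 211 and 309 reads in the mutant and 141, 151 and 115 in the wild type. The share was 20.4%, 23% and 15.8% in the mutant and 63.6%, 69.7% and 52.5% in the wild type (log2 -1.71 within the cluster, diffSpliceDGE adjusted p = 9.8e-06).

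AT2G04845:Io002 (chr2:1702597-1702691), in an acyltransferase family gene, had shares of 21.8%, 30% and 27.7% in the mutant and 87.9%, 83.1% and 94.4% in the wild type (log2 -1.74, adjusted p = 0.000495). Here the competitor, 29 bases inside, has the higher donor score printed above and rose by 2.72 within the cluster. ATMAP4K ALPHA1 (AT1G53165:Io013, chr1:19817225-19817312), a protein kinase gene, had 33.3%, 28.4% and 48.5% in the mutant and 100%, 94.6% and 95% in the wild type. Its competing junction had 62, 54 and 49 reads in the mutant and 0, 2 and 1 in the wild type, with a donor 12 bases inside.

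FAC1 (AT2G38280:Io001, chr2:16033655-16033741), the AMP deaminase gene, showed the same direction on the 3′ UTR side, at 17%, 25.8% and 26.4% in the mutant and 60.3%, 60.3% and 58.3% in the wild type (log2 -1.43). AT4G21660:Io011 (chr4:11508387-11508826), in a spliceosome-associated protein gene, had 26.4%, 25.7% and 23.4% in the mutant and 59.9%, 60% and 45.8% in the wild type. There the whole-intron junction skips an exon, and its strongest competitor had 211, 249 and 186 reads in the mutant and 33, 62 and 43 in the wild type.

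In the opposite direction, XBAT35 (AT3G23280:Io010, chr3:8323015-8323362), a ubiquitin ligase gene, skipped its exon in 61.8%, 57.3% and 53.2% of competing junction reads in the mutant and 21.1%, 26.1% and 20.6% in the wild type (log2 1.32, adjusted p = 5.47e-05). AT5G05550:Io003 (chr5:1639358-1639823), in a DNA-binding factor gene, had 67.5%, 86.7% and 84.5% in the mutant and 24.5%, 21.8% and 20% in the wild type (log2 1.80). AFC2 (AT4G24740:Io012, chr4:12756567-12757551; reference symbol FC2) encodes a kinase of SR splicing factors and had 28.9%, 35.6% and 30.9% in the mutant and 16%, 16.9% and 11.0% in the wild type (log2 1.07, adjusted p = 0.022). In CBL (AT3G57050:Io013, chr3:21114060-21114206), of methionine synthesis, the outer donor rose to 36.3%, 42.8% and 49% in the mutant, against 20.2%, 11.6% and 14.6% in the wild type.

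**Figure D5:**
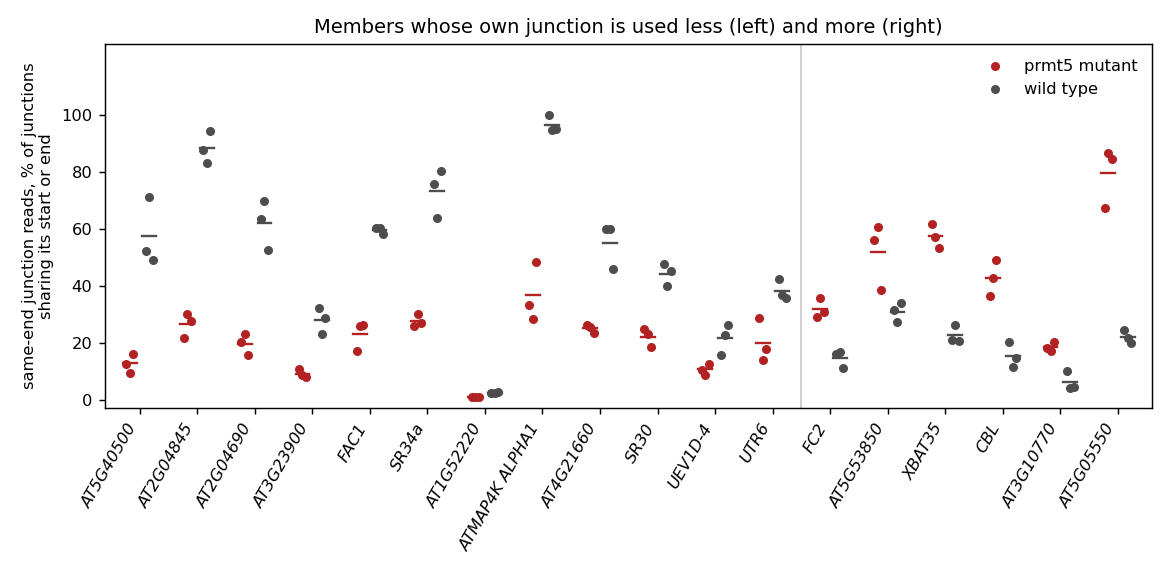
Reads of the same-end junction as a percent of all junctions sharing its start or end, for the 18 called members with a mean of 30 or more junction reads and no overlapping gene; points are libraries, prmt5 mutant left of wild type for each gene, bars are means of 3 libraries, and FC2 is the reference symbol of AFC2. The 12 left of the grey line are lower and the 6 right of it higher in the mutant, with no overlap between groups in any. They were chosen by the call, which makes such separation likely.

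Donor pairs could be compared where the whole-intron junction and its strongest competitor share the acceptor, in 331 members. Where the intron holds a skipped exon, the competing donor is that of the exon, and the outer donor also serves the junction into the exon. Such pairs are counted here too, so weaker or stronger does not always describe a choice between alternative donors. Of 17 whose junction fell, 16 had both scores, and the whole-intron donor was the weaker in 12 and the stronger in 4, with a median difference of -1.66. Of 14 whose junction rose, it was the weaker in 5 and the stronger in 9, with a median difference of 0.72. In the 282 scored pairs that were not called, it was weaker in 132 and stronger in 140, with a median of 0.00. By class, 8 rose and 14 fell of 210 tested with an alternative donor, 8 rose and 3 fell of 89 with a skipped exon, and 1 rose and 6 fell of 548 with an alternative acceptor. Of the 23 members whose junction fell, the whole intron rose relative to the gene in 11 and fell in 0, and of the 18 whose junction rose it rose in 4 and fell in 5.

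Genes of splicing, the clock and flowering were looked up from lists of known members. The counts below stand beside 16.4% of all members and 25.3% of all rows that rose relative to the gene, and 21.3% of members and 25.7% of rows that rose relative to the junction, and with so few genes nothing particular to a list can be read from them. Of 20 SR protein genes, which bind exons and recruit the spliceosome, 14 hold 23 members, and of 20 tested 4 rose and 0 fell relative to the gene, while relative to the junction 6 of 14 rose and 0 fell. SR34a (AT3G49430:Io014, chr3:18331713-18332641) had 21.8, 20.9 and 19.4 reads per 100 gene reads in the mutant and 5.33, 9.16 and 7.43 in the wild type (log2 1.5, adjusted p = 2.91e-08). The rise lay in the nested exon (log2 1.69) and the intron-table bin of 149 bases after it (1.60). The bin of 535 bases before it did not pass the test (-0.63, adjusted p = 0.199). The whole-intron junction of SR34a, which skips an exon, held 25.9%, 30.2% and 27.1% in the mutant and 75.9%, 63.8% and 80.3% in the wild type (cluster test adjusted p = 0.000106, share test adjusted p = 0.147). The gene itself was higher in the mutant (log2 1.42).

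RS2Z33 (AT2G37340:Io005, chr2:15671601-15672224) had 7.53, 9.58 and 9.23 reads per 100 gene reads in the mutant and 3.60, 5.31 and 4.19 in the wild type (log2 1.00). SR45a (AT1G07350:Io003, chr1:2258603-2259002) rose by 0.69 and SCL33 (AT1G55310:Io003, chr1:20631120-20631884) by 0.54, and the call of SCL33 was lost with the coverage covariate. In SR30 (AT1G09140:Io002, chr1:2943227-2944168), the junction to the outer acceptor fell to 24.7%, 23% and 18.4% in the mutant, against 47.6%, 40.1% and 45.2% in the wild type (log2 -1.03 within the cluster, adjusted p = 0.00132; share test adjusted p = 0.355), while the intron did not pass relative to the gene (0.24). SR30 was chosen after its values were seen.

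Of 11 other splicing regulator genes, 6 hold 10 members, of which 1, in ATU2AF35A, rose and 0 fell. It had 13.5, 14.3 and 11.8 reads per 100 gene reads in the mutant and 8.33, 7.95 and 10.4 in the wild type (adjusted p = 0.0108), and the call was lost without mutant replicate 2 (log2 0.51) and without wild type replicate 2 (0.50). With no junction of the same ends counted, it could not be set against spliced reads.

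Of 20 clock genes, 11 hold 14 members, and 2 of 13 tested rose and 0 fell relative to the gene, while relative to the junction 1 of 11 rose and 0 fell. PRR9 (AT2G46790:Io007), a pseudo-response regulator that represses morning genes, had 124, 62 and 82 intron reads in the mutant and 11, 17 and 7 in the wild type, while its gene was also higher (log2 2.17). Per 100 gene reads this gave 5.88, 5.59 and 5.87 in the mutant and 3.57, 3.09 and 2.25 in the wild type (log2 0.95, adjusted p = 0.0224), and relative to the junction the intron rose by 1.64 (SE 0.38, adjusted p = 0.00373). The groups do not overlap, yet the call relative to the gene was lost with the coverage covariate (log2 1.03), in DESeq2 (0.96) and without any 1 of mutant replicate 1 (log2 0.94), mutant replicate 3 (0.94), wild type replicate 2 (0.99) or wild type replicate 3 (0.82). The nested exonic bin of 8 bases had 121, 60 and 75 reads in the mutant and 10, 17 and 7 in the wild type. That bin did not pass the test relative to the gene (log2 0.93, edgeR adjusted p = 0.224). The intron-table bin of 89 bases had 14, 5 and 12 reads in the mutant and 2, 0 and 0 in the wild type, too few for the test. The outer donor, before the 8 exonic bases printed above, was used in 28.9%, 15.6% and 34.4% of competing junction reads in the mutant and 52.6%, 44.4% and 46.2% in the wild type, a difference that did not pass the test (adjusted p = 0.908). Counts behind these shares were 43, 10 and 32 junction reads in the mutant and 10, 12 and 6 in the wild type. PRR3 (AT5G60100:Io011, chr5:24200656-24201128), another pseudo-response regulator, had 9.25, 7.60 and 6.36 reads per 100 gene reads in the mutant and 2.61, 4.35 and 2.81 in the wild type (log2 1.23, adjusted p = 0.000276). With the coverage covariate its log2 change was 0.78 and not called, and the log2 change of 1.09 relative to the junction did not pass the test (adjusted p = 0.0683).

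Of 21 flowering genes, 10 hold 17 members, and 2 of 11 tested rose and 0 fell relative to the gene, while relative to the junction 2 of 6 rose and 0 fell. MAF1 (AT1G77080:Io001, chr1:28955864-28958455), a MADS-box repressor of flowering, had 33.9, 32.1 and 27.6 reads per 100 gene reads in the mutant and 16.7, 21.2 and 16.6 in the wild type (log2 0.77, adjusted p = 0.000143). Of its 2 intron-table bins, that of 2470 bases rose by 2.34 and that of 64 bases did not pass the test (0.13, adjusted p = 0.673). Relative to the junction the intron rose by 3.05 (adjusted p = 0.0116), and the whole-intron junction fell to 8, 3 and 8 reads in the mutant, against 12, 38 and 28 in the wild type. MAF4 (AT5G65070:Io008, chr5:25992495-25994432) had only 9, 13 and 16 intron reads in the mutant and 18, 4 and 8 in the wild type. Its log2 change of 1.57 relative to a gene that was lower in the mutant (adjusted p = 0.0362) was not called without mutant replicate 1 (1.66), mutant replicate 2 (1.77), mutant replicate 3 (1.24) or wild type replicate 2 (1.07). FLC holds 4 members, of which 3 had too few reads, and Io010 had 15, 21 and 19 reads in the mutant and 21, 4 and 2 in the wild type (log2 relative to the gene 0.02, adjusted p = 0.984).

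Of 3615 genes that hold members, 905 were higher (25%) and 487 lower (13.5%) in the mutant, 38.5% in all, against 34.5% of 21949 genes tested (18.6% higher and 15.9% lower). Of the 573 genes with a member that rose, 233 were higher and 51 lower. Summed over members, whole introns held 13.9, 14.0 and 14.6 reads per 100 gene reads in the mutant and 13.5, 13.9 and 14.3 in the wild type (exact permutation test, two-sided p = 0.5). The groups overlap in this sum, in which the members with most reads weigh most. Reads shared by overlapping members count more than once in it, while each gene is counted once, so it is not a share of gene reads. The median over members was 5.12, 5.36 and 4.75 in the mutant and 3.34, 4.10 and 4.02 in the wild type, without overlap (exact permutation p = 0.1, the smallest that 3 against 3 libraries can give). Intron reads per 100 intron and same-end junction reads summed to 66.3, 67.2 and 67.5 in the mutant and 65.4, 64.7 and 64.9 in the wild type (exact permutation p = 0.1).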

How the data were processed

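RNA-seq of 3 prmt5 mutant and 3 wild type libraries was analysed. The authors deposited whole-number counts per gene, exon bin, intron row and splice junction, per the file headers. The submitters' processing notes name STAR and TAIR10, without role or version; the counting program, annotation and strand setting are not given there, which leaves the 981 members in overlapping genes uncertain. Of 32835 genes found by locus tag in the TAIR10.1 reference, 32834 overlapped the reference gene in position, and agreement of their ends was not tested. Members and gene lists were chosen with earlier results of these data known.

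Counts were tested in R 4.3.3 with edgeR 4.0.16 (robust quasi-likelihood F-test, genotype only). Rows needed 10 reads in 3 or more libraries. Rows set against the gene or the same-end junction also needed a gene mean of at least 20. For junction shares, the competing junctions could reach the read minimum in place of a junction with any reads. For genes, edgeR's filterByExpr set the minimum. Offsets were log(count + 1) of the gene, of the same-end junction or of all junctions sharing its start or end. Benjamini-Hochberg adjustment ran over all rows tested. No scaling factor was added to these offsets; genes used TMM. A row was called at adjusted p under 0.05. DESeq2 1.42.0 was an alternative. Junctions were also tested within clusters linked by a shared start or end with diffSpliceDGE of edgeR. Pooled values used exact permutation tests over libraries (SciPy 1.17.1). Scripts were tested on simulated data. Intervals from these counts cover no PCR error.

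Named members were those of PRMT5, PRR9 and FLC; the 8 largest rises and 5 largest falls relative to the gene and the 3 largest changes of junction share in each direction, with a mean of at least 50 reads, groups that do not overlap and no overlapping gene; the smallest p per class; and up to 4 called members of each list. Some events carry an asterisk in the tables whose meaning is not given; 743 members have one, among them those of WLIM2b, AT1G51200 and ABCI14.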

Additional observations from a re-analysis of the deposited data

How the results depend on the processing

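Counts of called members moved by more than 1.5 times as follows. The cause was not tested unless stated. With the coverage slope as covariate, the count was 268 of introns relative to the gene (761 as reported), 451 of nested intron bins (817), 44 of junctions relative to the gene (107), 324 of introns relative to the junction (490), 21 of nested exonic bins (51), 818 of host genes (1392), 21 of junctions within clusters (41) and 0 of junction shares (14; 187 at an unadjusted p under 0.05 in edgeR, against 264 in the reported fit and 192 in DESeq2). Scaled by library size in place of the gene, 1345 introns were called with TMM (1133 higher, 212 lower) and 1345 with DESeq2 size factors (1134 and 211), and 483 and 479 junctions; these settings include the change of the gene itself. Centred on their own table, 1421 introns and 526 junctions were called, and nested intron bins split into 509 higher and 276 lower. A junction mean of at least 50 left 311 introns relative to the junction, of 1073 rows tested. Junction shares gave 52 in DESeq2, 41 within clusters, 23 with at least 10 junction reads and 100 with the competitor minimum. Nested exonic bins gave 104 in DESeq2.

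Leaving out 1 library at a time gave 470 to 852 introns relative to the gene, 622 to 759 nested intron bins, 51 to 303 junctions relative to the gene, 405 to 443 introns relative to the junction, 8 to 16 junction shares (9 without mutant replicate 2, 8 without wild type replicate 2), 15 to 371 nested exonic bins, 965 to 1485 host genes and 27 to 37 junctions within clusters (27 without wild type replicate 2). Pooled ratios of mutant over wild type ranged from 1.00 to 1.03 per gene read, from 1.03 to 1.04 per intron and junction read, and stayed at 1.02 for the junction share. Replicate numbers are given by the labels. Same-numbered libraries did not deviate together (r of -0.13, -0.05 and -0.01 over genes), which cannot tell whether they share more than a number. With a replicate block, 680 introns relative to the gene, 472 relative to the junction, 87 junctions, 15 shares, 36 within clusters, 1293 host genes and 7 nested exonic bins were called.

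Of 561 values of named members under other settings, 511 kept direction and side of the threshold, 43 lost the call, 1 gained it, 4 reversed and 2 uncalled values moved. AT1G52220 relative to the gene (0.14) was -0.61 with TMM, -0.61 with size factors and -1.18 centred on the table, and MAF4 (1.57) was -0.19 centred on the table. Depth limits the 1041 members below the read minimum, and junction shares where competitors are rare.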
